A study of Caenorhabditis elegans with 8 samples.

Results

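The 10 core genes of C. elegans germ granules were followed across 8 RNA-sequencing libraries of dissected gonads. They were chosen by name, with earlier results of these data known. These were the PGL scaffold genes pgl-1, pgl-2 and pgl-3 and the GLH helicase genes glh-1, glh-2, glh-3 and glh-4. The others were deps-1, mip-1 and mip-2. All 10 of 10 were found among the 46934 gene identifiers of the count files, and all 10 passed the filter on low counts, which kept 10302 genes. The groups were wild-type gonads (wt, replicates 3, 4 and 5), gonads of the sin-3(syb2172) mutant (replicates 3, 4 and 5) and gonads of the hda-3(ok1991) mutant (replicates 4 and 5). SIN-3 holds together a co-repressor complex, and HDA-3 belongs to the class I enzymes that remove acetyl groups from histones. Each library pooled the gonads of 9 to 12 young adults, and RNA was amplified by a Smart-seq2 type method. A gonad holds germ cells of every stage together with the somatic cells that enclose them, so that fewer cells of a type and less RNA per cell cannot be told apart. By the labels, replicates of a strain were independent biological ones.

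Germ granules of the worm, called P granules, are droplets of RNA and protein that sit on the nuclear pores of germ cells and collect messenger RNAs as they leave the nucleus. PGL-1 and PGL-3 self-assemble into the scaffold of the granule and bind RNA, and PGL-2 is their paralog. The GLH proteins are DEAD-box RNA helicases related to Vasa of Drosophila; GLH-1, GLH-2 and GLH-4 carry phenylalanine-glycine repeats like those of nuclear pore proteins, and GLH-3 lacks them. DEPS-1 is needed for PGL-1 to gather in granules, and MIP-1 and MIP-2 are LOTUS-domain proteins that bind GLH-1 and the embryonic granule protein MEG-3.

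In the Ensembl annotation of the WBcel235 assembly, matched by gene identifier, all 4 helicase genes and deps-1 lie on chromosome I: deps-1 (WBGene00022034) at 506473 to 509056, glh-4 (WBGene00001601) at 3727027 to 3731179, glh-3 (WBGene00001600) at 5792321 to 5795114, glh-2 (WBGene00001599) at 6513928 to 6517507 and glh-1 (WBGene00001598) at 6854478 to 6857536. mip-1 (WBGene00008005) at 4793086 to 4795423 and pgl-2 (WBGene00003993) at 8670543 to 8675435 are on chromosome III, and pgl-1 (WBGene00003992) at 6974441 to 6977318 is on chromosome IV. pgl-3 (WBGene00003994) at 4755979 to 4758587 and mip-2 (WBGene00010281) at 13669353 to 13671958 are on chromosome V. None is X-linked, and the family members are apart from each other.

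The mutated genes and the tissue were checked before the granule genes. sin-3 itself had 606, 616 and 1274 reads in wt replicates 3, 4 and 5 and 0, 2 and 1 reads in the sin-3 libraries. hda-3 was at 28.1 to 39.1 CPM in wt and at 13.9 and 18.7 CPM in the hda-3 libraries, where CPM is the usual count scaled to library size after a TMM factor, which takes the bulk of genes in a library as reference. The log2 difference there was -0.98 (SE 0.25, edgeR adjusted p = 0.0178), so hda-3 reads fell but were not lost. Markers of germ cells and oocytes were all detected, with 0 of 12 at 0 reads in any library, and summed to 6273 to 10720.5 CPM in wt, 3010.4 to 8179 CPM in sin-3 and 3719 to 3829 CPM in hda-3. The 12 sperm markers summed to 4.52 to 10.99 CPM in wt, 3.29 to 29.3 CPM in sin-3 and 713 to 844 CPM in hda-3. In hda-3 8 of the 10 tested were called higher, where 13.5% of all genes were called higher. Intestine markers summed to 6.37 to 42.4 CPM in wt, 33.5 to 97.2 CPM in sin-3 and 156 to 277 CPM in hda-3. Of the 11 tested, 2 were called higher in sin-3 and 8 in hda-3, against 2.68% and 13.5% of all genes. Somatic gonad markers summed to 28.9 to 99.4 CPM in wt, 61.5 to 83.7 CPM in sin-3 and 18.03 to 22.3 CPM in hda-3. Although these somatic gonad sums overlap between wt and sin-3, 7 of the 8 tested were above 0 in sin-3, against 56.3% of all genes. Their median log2 fold change there was 1.59, and 2 were called higher, against 2.68% of all genes. In hda-3 1 was called higher and 2 lower, against 13.5% and 4.86% of all genes. Muscle markers summed to 113 to 163 CPM in wt, 230 to 336 CPM in sin-3, where every library lay above wt, and 106 to 273 CPM in hda-3. Above 0 were 9 of 10 in each mutant, against 56.3% of all genes in sin-3 and 48.9% in hda-3. In sin-3 edgeR called 0, with 5 at an unadjusted p under 0.05, all higher, against 13.9% of all genes. DESeq2 called 3 of them higher there, and 583 of all 10302 genes. By edgeR 1 was called lower in hda-3, against 4.86% of all genes. At 0 reads were 1 or 2 sperm markers in each wt library, 1 to 3 in each sin-3 library and 0 in hda-3, and in wt up to 2 of the 12 intestine markers (lys-7 and clec-63). Epidermis and cuticle markers summed to 300, 49.9 and 16.3 CPM in wt replicates 3, 4 and 5. They summed to 132 to 214 CPM in sin-3 and to 389 and 72.8 CPM in hda-3 replicates 4 and 5. The part of these other cells in the levels below was not tested.

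In wt gonads the granule genes spanned a wide range of levels. On a scale of CPM per kilobase of exon, which allows genes of different length to be compared, glh-1 was highest at 209 ± 47.5 (SD, n = 3, as for all wt and sin-3 values), followed by pgl-1 at 143 ± 13.2 and deps-1 at 125 ± 11.8. The level of glh-1 lay above that of 97.5% of the 10302 genes tested. pgl-3 followed at 78.8 ± 9.17 CPM per kilobase, then mip-1 at 41.7 ± 9.12, glh-2 at 38.5 ± 3.70 and mip-2 at 25.1 ± 3.74. The remaining 3 paralogs were far lower, with glh-4 at 8.68 ± 2.79, pgl-2 at 7.30 ± 0.504 and glh-3 at 5.91 ± 1.27 CPM per kilobase. Even glh-3, the lowest member, lay above 59.3% of the genes tested. Neighbours in this order whose wt libraries overlapped were pgl-1 and deps-1, mip-1 and glh-2, glh-4 and pgl-2, and pgl-2 and glh-3. Each family therefore had 1 or 2 dominant members in wt gonads.

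The order of levels was nearly the same in the mutants. In sin-3 gonads glh-1 was at 188 ± 84.2 CPM per kilobase, pgl-1 at 97.5 ± 25.9, deps-1 at 83.7 ± 19.6 and pgl-3 at 51.3 ± 17.6. In hda-3 gonads glh-1 was at 120 ± 21.6 CPM per kilobase (n = 2), pgl-1 at 83.1 ± 7.86, deps-1 at 73.3 ± 6.97 and pgl-3 at 37.2 ± 6.14. In both mutants glh-2 stood above mip-1 and glh-3 above pgl-2, the reverse of wt, but glh-2 and mip-1 overlapped in all 3 genotypes. pgl-2, at 4.97 ± 0.395 CPM per kilobase in sin-3 and 5.61 ± 0.601 in hda-3, was the lowest member there. The libraries of glh-3 and pgl-2 did not overlap in sin-3 and overlapped in wt; in hda-3 they overlapped as well.

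**Figure D1:**
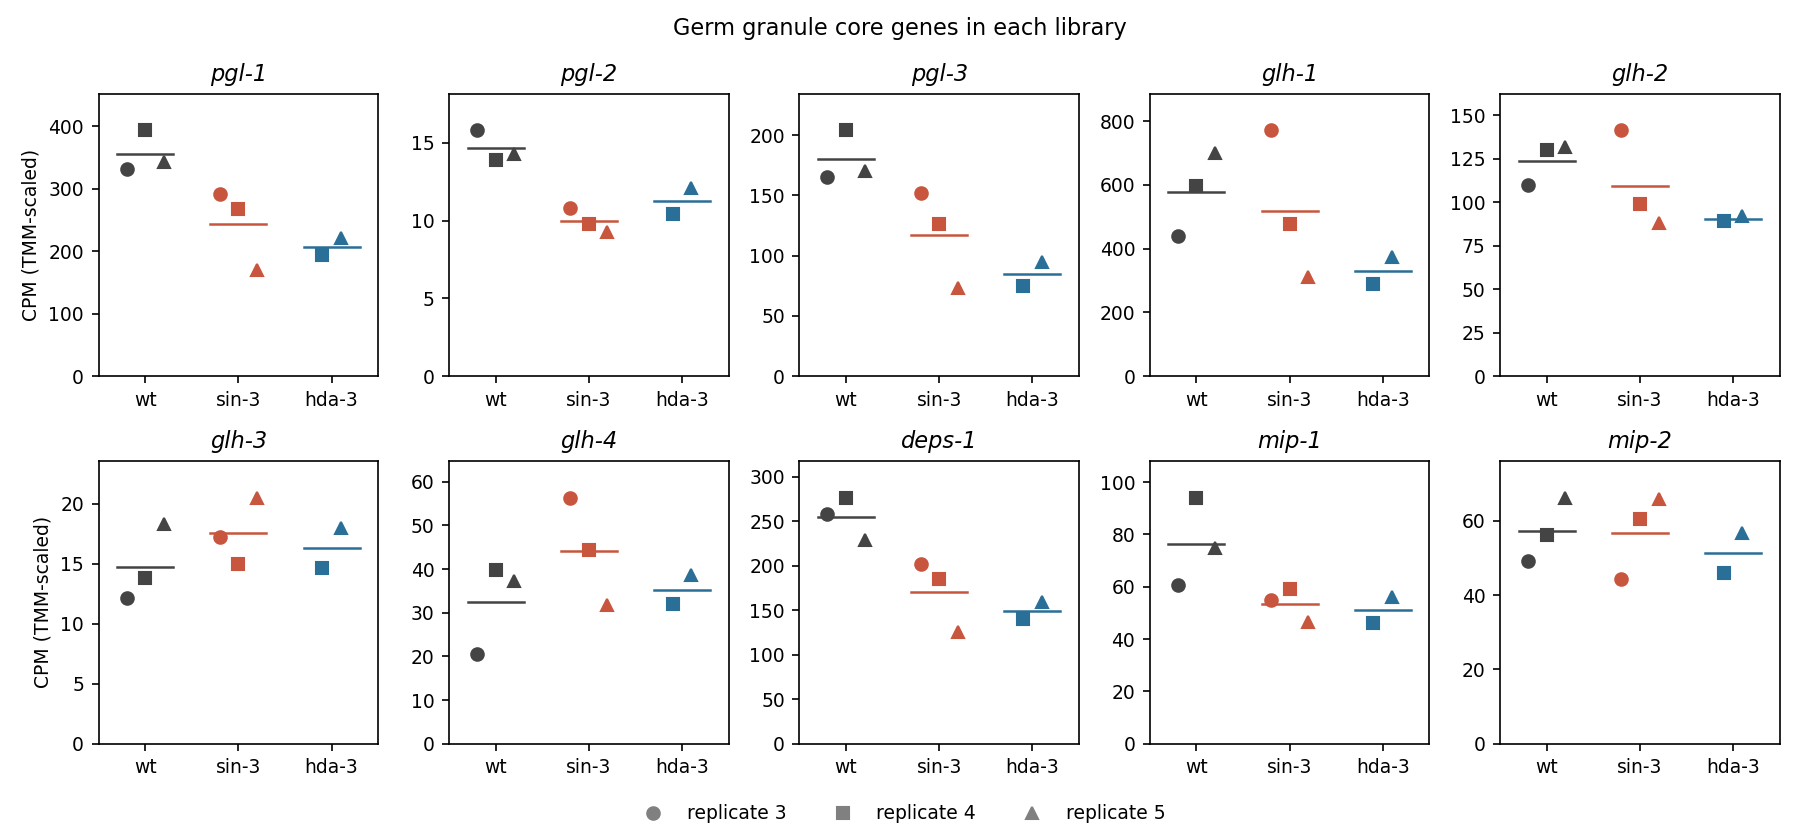
TMM-scaled CPM (vertical axes, linear, from 0) of each of the 10 genes in wt, sin-3 and hda-3 gonads; each point is 1 library, its shape the replicate number, and the bar the group mean. For pgl-1, pgl-2, pgl-3, deps-1 and mip-1 every mutant library lies below every wt library, while glh-3, glh-4 and mip-2 overlap between the groups.

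The comparison of each mutant with wt asks whether loss of SIN-3 or HDA-3 alters the expression of the granule machinery. The clearest difference was that of the scaffold gene pgl-3 in hda-3 gonads. pgl-3 was at 165, 204 and 170.6 CPM in wt replicates 3, 4 and 5 and at 74.98 and 94.8 CPM in hda-3 replicates 4 and 5, so that both hda-3 libraries lay well below all wt libraries. It fell to 0.472 of the wt level, a log2 fold change of -1.08 (SE 0.31, edgeR quasi-likelihood test, Benjamini-Hochberg adjusted p = 0.0323, n = 3 and 2). This was the only call among the 10 genes, where 18.4% of all genes tested were called in hda-3 and 4.86% were called lower. The pgl-3 call was lost in 10 of 16 alternative fits. Among these were the fits without any 1 wt library (adjusted p = 0.0624, 0.0962 and 0.0667 without replicates 3, 4 and 5) and without sin-3 replicate 4 (0.0935). Others were those with RLE factors (0.0661), TMM on autosomal genes (0.0646) or scaling to reads outside ribosomal RNA (-0.18, 0.591). The call was also lost without hda-3 replicate 4 and without hda-3 replicate 5, fits that leave 1 library in that group. With 1 library left out, the log2 value ran from -1.26 to -0.91. The call held with DESeq2 (0.0412), with no filter (0.00312) and with only the wt and hda-3 libraries (0.00454).

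In sin-3 gonads pgl-3 was at 152, 126 and 73.3 CPM in replicates 3, 4 and 5. All 3 lay below wt but spread widely, with replicate 3 close to the lowest wt library and replicate 5 as low as the hda-3 libraries. The log2 fold change was -0.62 (SE 0.27, edgeR adjusted p = 0.172) and did not pass the threshold. It was -0.34 without sin-3 replicate 5, and leaving out replicate 3 gave -0.85 (adjusted p = 0.0545).

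pgl-1, the founding member of the family, was at 331, 393 and 343 CPM in wt, 291, 268 and 169.6 CPM in sin-3 and 193 and 221 CPM in hda-3. Every mutant library lay below every wt library. Neither difference passed the threshold: log2 -0.55 in sin-3 (SE 0.28, edgeR adjusted p = 0.235; -0.32 without sin-3 replicate 5) and -0.78 in hda-3 (SE 0.32, adjusted p = 0.117). The minor paralog pgl-2 was at 15.8, 13.9 and 14.3 CPM in wt, 10.8, 9.79 and 9.28 CPM in sin-3 and 10.4 and 12.1 CPM in hda-3. Its libraries were the tightest of the 3 scaffold genes in wt and in sin-3, though not in hda-3, and again no mutant library reached the wt range. The log2 fold change was -0.56 in sin-3 (95% interval -1.04 to -0.076, edgeR adjusted p = 0.134) and -0.38 in hda-3 (-0.92 to 0.16, adjusted p = 0.316). The exons of pgl-2 share 139 bases with the gene fli-1 on the same strand, where reads cannot be assigned to 1 gene.

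None of the 4 helicase genes passed the test in either mutant. glh-1, the most abundant member, was at 439, 597 and 701 CPM in wt, 771, 477 and 310.5 CPM in sin-3, and 289 and 373 CPM in hda-3. The sin-3 libraries spanned more than the whole wt range, with replicate 3 above and replicate 5 below every wt library, whereas both hda-3 libraries lay below wt. The log2 fold change was -0.16 in sin-3 (95% interval -0.99 to 0.68, edgeR adjusted p = 0.824) and -0.81 in hda-3 (-1.77 to 0.15, adjusted p = 0.229). The sin-3 value changed sign without sin-3 replicate 5 (0.14) and without wt replicate 5 (0.0042).

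glh-2 followed glh-1 at a lower level, with 110.2, 130.05 and 132 CPM in wt, 141, 99.1 and 88.4 CPM in sin-3 and 89.3 and 92.1 CPM in hda-3. All hda-3 libraries lay below wt, while sin-3 replicate 3 lay above it; the difference between the mutants was not called (log2 0.27 for sin-3 over hda-3, edgeR adjusted p = 0.575). Against wt the log2 fold change was -0.18 in sin-3 (adjusted p = 0.638; -0.40 without sin-3 replicate 3 and -0.016 without replicate 5) and -0.45 in hda-3 (adjusted p = 0.238).

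glh-3, whose product lacks the phenylalanine-glycine repeats, was at 12.2, 13.8 and 18.3 CPM in wt, 17.2, 14.96 and 20.5 CPM in sin-3 and 14.6 and 17.99 CPM in hda-3. The 3 groups overlapped, with log2 fold changes of 0.25 in sin-3 (edgeR adjusted p = 0.529) and 0.14 in hda-3 (adjusted p = 0.760). glh-4 was at 20.5, 39.8 and 37.2 CPM in wt, 56.3, 44.3 and 31.7 CPM in sin-3 and 31.9 and 38.6 CPM in hda-3. Its wt replicate 3 stood apart from the other 2 wt libraries. The log2 fold change was 0.43 in sin-3 (95% interval -0.16 to 1.03, edgeR adjusted p = 0.331) and 0.12 in hda-3 (-0.55 to 0.78, adjusted p = 0.832), and the sin-3 value ran from 0.19 without wt replicate 3 to 0.66 without sin-3 replicate 5, while the hda-3 value was -0.13 without wt replicate 3 and -0.022 without hda-3 replicate 5.

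Among the assembly factors, deps-1 resembled pgl-1. It was at 258, 277 and 229 CPM in wt, 202, 185 and 126 CPM in sin-3, and 139.7 and 159.8 CPM in hda-3. All 5 mutant libraries lay below wt, with log2 fold changes of -0.57 in sin-3 (SE 0.25, edgeR adjusted p = 0.174) and -0.76 in hda-3 (SE 0.29, adjusted p = 0.0881). Without sin-3 replicate 5 in the common model deps-1 was called lower in hda-3 (-0.59, adjusted p = 0.0499). Its exons overlap those of the coding gene Y65B4BL.7 on the other strand by 109 bases, and as the strand setting of the counting is not given in the sources used here, reads in that stretch cannot be told apart.

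Neither LOTUS-domain gene passed the test. mip-1 was at 60.6, 93.9 and 74.9 CPM in wt, 55.1, 59.2 and 46.4 CPM in sin-3 and 46.2 and 56.1 CPM in hda-3. No mutant library reached the lowest wt library, and the log2 fold change was -0.51 in sin-3 (SE 0.21, edgeR adjusted p = 0.141) and -0.58 in hda-3 (SE 0.23, adjusted p = 0.1099). mip-2 was at 49.3, 56.2 and 66.2 CPM in wt, 44.3, 60.4 and 65.8 CPM in sin-3 and 45.9 and 56.8 CPM in hda-3. These ranges nearly coincide, and the fold changes had intervals around 0: log2 -0.0078 in sin-3 (95% interval -0.46 to 0.44, edgeR adjusted p = 0.990) and -0.16 in hda-3 (-0.66 to 0.35, adjusted p = 0.683).

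**Figure D2:**
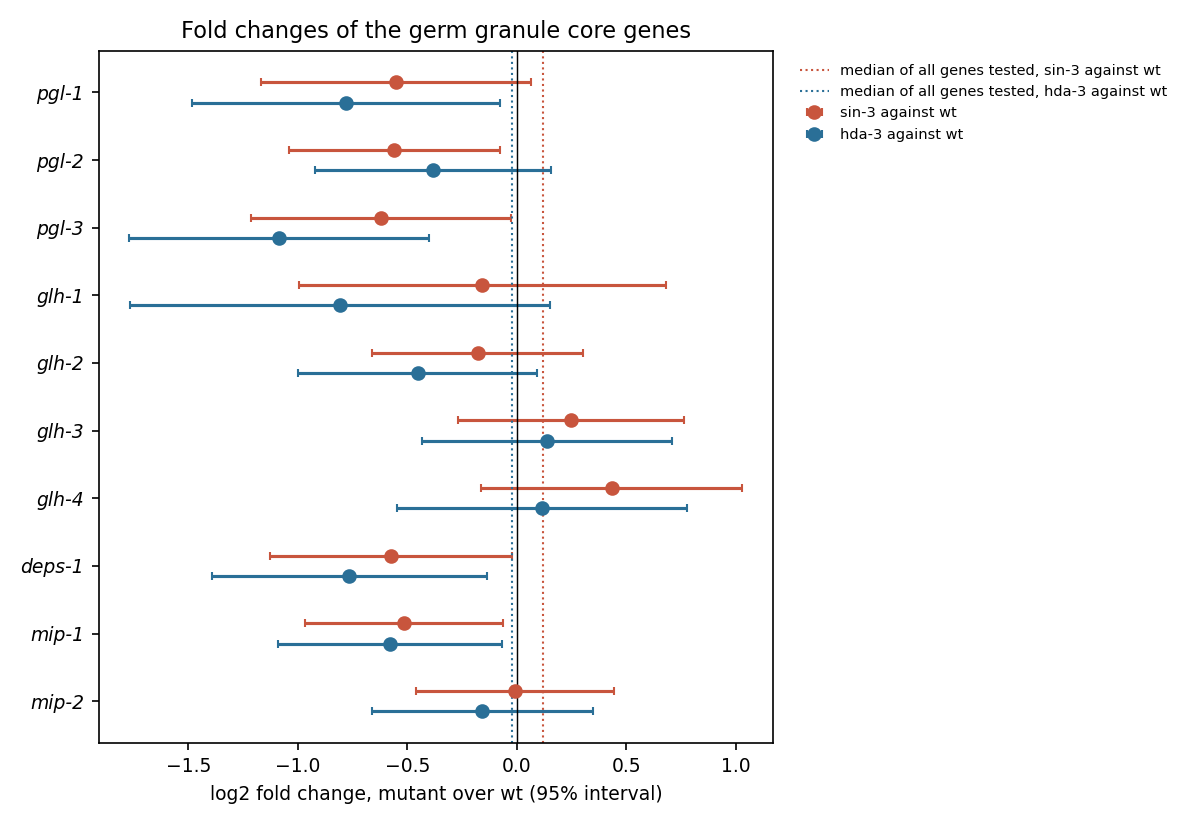
Log2 fold changes of the 10 genes (horizontal axis, with 95% intervals from the edgeR fit) in sin-3 and hda-3 gonads over wt; dotted lines mark the median of all 10302 genes tested in each comparison. 8 of 10 points are below 0 in each mutant, and pgl-3 in hda-3, at -1.08, is the lowest. Scaled to reads outside ribosomal RNA instead, most of these values are above 0.

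Counted together, 0 of 10 genes were called in sin-3, against 7.60% of all genes tested, and 1 of 10 was called in hda-3, against 18.4%. By edgeR's unadjusted p under 0.05, 4 of 10 were lower and 0 higher in sin-3 (pgl-2, pgl-3, deps-1 and mip-1; of all genes 12.9% were lower and 13.9% higher), and 4 of 10 were lower and 0 higher in hda-3 (pgl-1, pgl-3, deps-1 and mip-1; of all genes 13.8% were lower and 18.4% higher). DESeq2 on all 8 libraries called 0 in sin-3 and 1, pgl-3, in hda-3, against 1302 and 1908 of all 10302 genes. All sin-3 libraries lay below all wt libraries for 5 of 10 genes, against 14.4% of all genes, and all hda-3 libraries for 7 of 10, against 26.7%. Values above 0 were those of 2 of 10 genes in each mutant, where 56.3% of all genes were above 0 in sin-3 and 48.9% in hda-3. The median log2 fold change of the 10 was -0.35 in sin-3 and -0.52 in hda-3, where that of all genes tested was 0.12 and -0.022. Both comparisons share the wt libraries, so the likeness of their values is not independent.

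The most abundant genes also had medians below 0, though less far below than the granule genes (-0.35 and -0.52). The genes tested were divided into 5 classes of equal size by mean CPM, a division made after the values were seen. The median log2 fold change of the most abundant class was -0.24 in sin-3 and -0.37 in hda-3, and that of the least abundant class was 0.73 in each. Of the 10 granule genes 8 were in the most abundant class and 2, pgl-2 and glh-3, in the next, whose medians were -0.033 and -0.074. In sin-3 and hda-3 pgl-2 lay below these medians (-0.56 and -0.38) and glh-3 above them (0.25 and 0.14). In the most abundant class 10.4% of genes were called lower in sin-3 and 10.9% in hda-3. What part abundance has in the values of the granule genes was not tested.

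The sign of most values also depended on the scale. The TMM factors of the wt libraries were 0.548 to 0.960, those of hda-3 were 1.60 and 1.62, and those of sin-3 spanned 0.424 to 2.30. Summed over the 10 genes, the TMM-scaled level was 1463, 1818 and 1786 CPM in wt, 1742, 1344 and 941 CPM in sin-3, and 935 and 1123 CPM in hda-3. As a share of all reads outside nuclear ribosomal RNA, the same genes took 0.218, 0.319 and 0.328% in wt, 0.352, 0.385 and 0.372% in the sin-3 libraries and 0.308 and 0.347% in those of hda-3. On this second scale no sin-3 library was below a wt library. A fit to such shares, added after the values were seen, raised the median of all genes to 0.92 in sin-3 and 0.88 in hda-3, and those of the granule genes to 0.36 and 0.38. Only pgl-3 in hda-3 kept a value below 0 there (-0.18, edgeR adjusted p = 0.591), and glh-4 was called higher in sin-3 (1.12, adjusted p = 0.0493). In that sin-3 fit 1321 of the 9910 genes tested were called higher. The median of the granule genes minus that of all genes was -0.47 in sin-3 and -0.49 in hda-3 under TMM, and -0.56 and -0.49 under the shares. In both comparisons with wt and on either scale, 8 of 10 were below the median gene, with glh-3 and glh-4 above it.

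**Figure D3:**
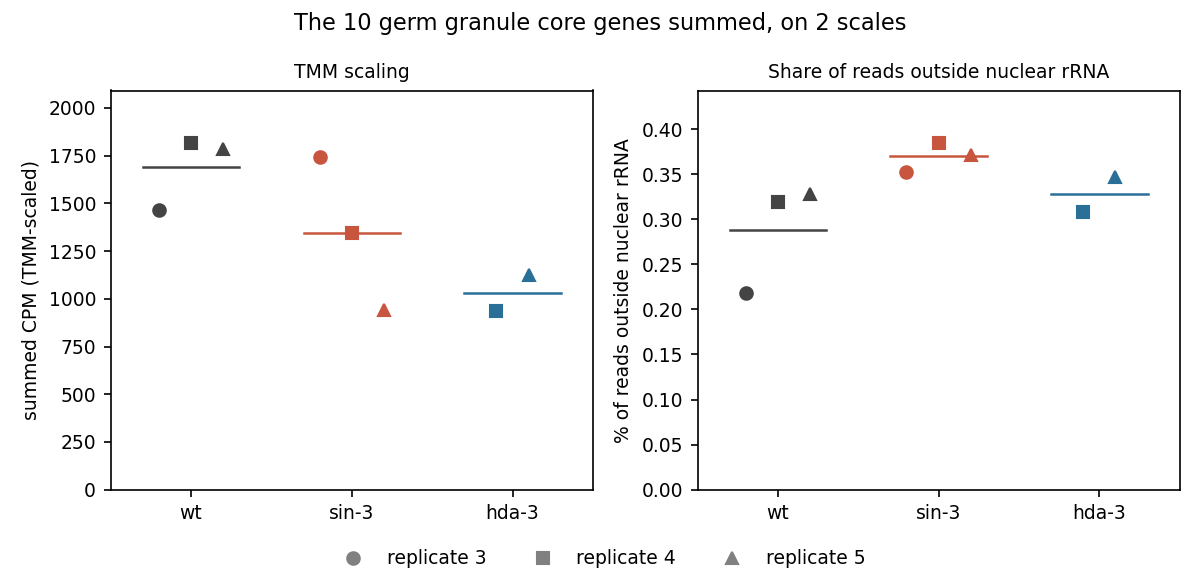
The 10 germ granule core genes summed in each library, on the left as TMM-scaled CPM and on the right as a percentage of reads outside nuclear ribosomal RNA (linear axes from 0; points are libraries, shapes replicate numbers, bars group means). The hda-3 libraries are the lowest group on the left, at 935 and 1123 CPM, and overlap wt on the right, at 0.308 and 0.347%.

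Set against the summed reads of the 12 germ cell and oocyte markers, the granule genes had 0.153, 0.170 and 0.285 reads per marker read in wt. The ratio was 0.213, 0.275 and 0.313 in the sin-3 libraries and 0.244 and 0.302 in those of hda-3. The groups overlapped, and no mutant library was below the wt minimum. The most abundant of the 12 markers averaged 4204 ± 1621, 2128 ± 184 and 1347 ± 339 CPM in wt, so that a few genes carried most of this sum. Of the 12 markers 5 were above 0 in sin-3 and 1 in hda-3, and their median log2 fold change was -0.16 and -0.72, against -0.35 and -0.52 for the granule genes. By edgeR 0 of the 12 were called in sin-3, against 7.60% of all genes. Its unadjusted p was under 0.05 for 1 marker above wt and 3 below, against 13.9% and 12.9% of all genes. DESeq2 called 2 lower in sin-3, and 719 of all 10302 genes. By edgeR 1 was called in hda-3, against 18.4% of all genes, and by DESeq2 2 were called lower, against 449 of all 10302 genes. The edgeR call was gld-1, a translational repressor of the meiotic germ line that is named after its value was seen; it fell from 45.4 ± 5.10 to 27.8 ± 2.495 CPM (edgeR adjusted p = 0.0456).

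Ratios within a family do not depend on how libraries are scaled, but the part of library composition in them was not tested. Of the reads per kilobase on the 4 helicase genes, glh-4 took 2.696, 3.91 and 3.19% in wt, 4.36, 5.36 and 5.41% in the sin-3 libraries and 5.82 and 5.70% in those of hda-3. All 5 mutant libraries lay above all 3 wt libraries, and how often ratios of other genes do so was not examined. The share of glh-3 was 2.40, 2.03 and 2.35% in wt, 2.004, 2.71 and 5.25% in the sin-3 libraries and 4.00 and 3.98% in those of hda-3, so that the hda-3 libraries agreed closely with each other while the sin-3 libraries spread from below wt to the highest value. glh-1 took 78.1, 79.2 and 81.3% in wt, 80.9, 78.0 and 71.8% in the sin-3 libraries and 71.2 and 74.5% in those of hda-3. sin-3 replicates 4 and 5 and both hda-3 libraries were below the wt range. The share of glh-2 was 16.8, 14.8 and 13.1% in wt, 12.8, 13.9 and 17.6% in the sin-3 libraries and 18.95 and 15.8% in those of hda-3, and the groups overlapped.

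Within the scaffold family pgl-3 took 34.0, 35.2 and 34.01% of the reads per kilobase in wt, 35.2, 33.0 and 30.6% in the sin-3 libraries and 28.4 and 30.5% in those of hda-3. Per kilobase, pgl-1 exceeded pgl-3 by a factor of 1.84, 1.77 and 1.85 in the wt libraries, by 1.76, 1.94 and 2.12 in those of sin-3 and by 2.36 and 2.14 in those of hda-3. The wt libraries lay close together, and both hda-3 libraries and sin-3 replicates 4 and 5 stood above their range. The ratio of mip-2 to mip-1 per kilobase was 0.654, 0.481 and 0.711 in the wt libraries, 0.647, 0.821 and 1.14 in those of sin-3 and 0.798 and 0.814 in those of hda-3. Again the hda-3 libraries were above all of wt, as were sin-3 replicates 4 and 5, and in replicate 5 the mip-2 level per kilobase exceeded that of mip-1. These shares were not tested; GLH genes are paralogs, and how many of their reads aligned to more than 1 member, and so were left uncounted, was not examined here.

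**Figure D4:**
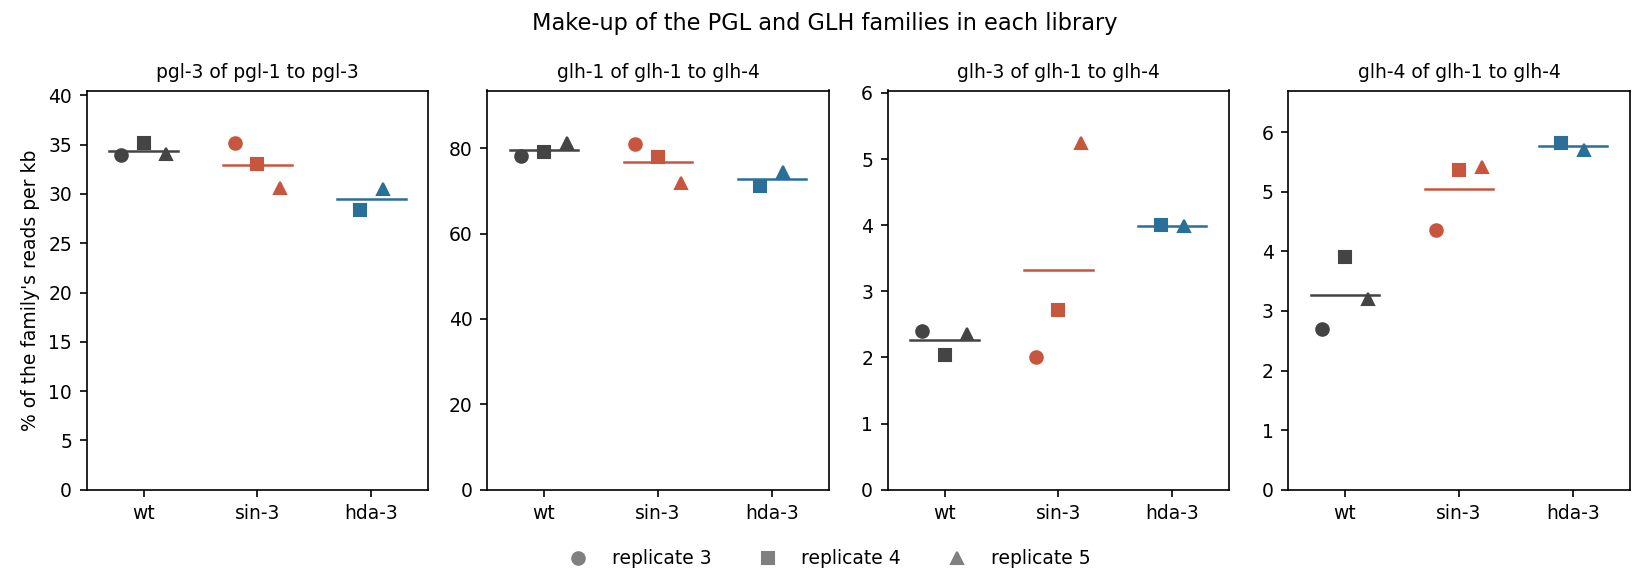
Share of a family's reads per kilobase (vertical axes, %, linear from 0) taken by pgl-3 among the 3 PGL genes and by glh-1, glh-3 and glh-4 among the 4 GLH genes in each library; points are libraries, shapes replicate numbers and bars group means. The share of glh-4 is 2.696 to 3.91% in wt and 4.36% or more in every mutant library.

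The granule genes also differed in how much they varied among replicates. In sin-3 the SD of log2 CPM was 0.66 for glh-1, 0.55 for pgl-3 and 0.42 for pgl-1, against 0.34, 0.16 and 0.13 in wt. The median gene had an SD of 0.44 in sin-3, 0.36 in wt and 0.21 in hda-3. For pgl-1, pgl-2, pgl-3, glh-1, glh-2, glh-4 and deps-1, replicate 3 was the highest sin-3 library and replicate 5 the lowest. pgl-2 and mip-1 were steadier in sin-3, with an SD of 0.11 and 0.18. sin-3 replicate 3 had the largest share of ribosomal RNA reads, 79.0%, and replicate 5 the smallest, 41.8%; the part of library composition in this spread was not tested.

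The direct comparison of sin-3 with hda-3 gonads found no called difference in the granule genes, with 0 of 10 called against 15.3% of all genes by edgeR. By edgeR 0 had an unadjusted p under 0.05, against 24.9%, and DESeq2 called 0, against 1584 of all 10302 genes. Values were above 0 for 9 of 10 genes, against 54.7% of all genes. Log2 values for sin-3 over hda-3 ran from -0.18 for pgl-2 to 0.65 for glh-1, with adjusted p from 0.410 to 0.912. The interval for glh-1 was -0.30 to 1.60 and that for pgl-3 -0.21 to 1.13, and these data do not set either difference apart from 0. For mip-1 the interval was narrower, -0.44 to 0.57. Libraries of the mutants overlapped for all 10 genes, where 39.8% of all genes did not overlap.

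In the authors' deposited table for hda-3 against wt, pgl-3 has a log2 fold change of -0.97 (adjusted p = 7.72e-04), glh-1 of -0.80 (adjusted p = 0.00514) and pgl-1 of -0.66 (adjusted p = 0.0245), with 17.5% of all genes with an adjusted p called. deps-1 has -0.58 (adjusted p = 0.0696) in that deposited table, and the other 6 genes have adjusted p of 0.150 or more. In the authors' deposited table for sin-3 against wt none of the 10 has an adjusted p under 0.05, the lowest being 0.161 for deps-1, where 12.7% of genes are called. The deposited table and the edgeR fit both call pgl-3 lower in hda-3. For pgl-1 and glh-1 they have the same direction, with edgeR values of -0.78 and -0.81, and differ in the call and in the SE. The SE was 0.32 and 0.44 in the edgeR fit and is 0.227 and 0.233 in the deposited table. With only the wt and hda-3 libraries, edgeR gave SEs of 0.22 and 0.27 (adjusted p = 0.0538 and 0.0947). The source of the difference was not tested.

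Likeness of profile was measured as the mean absolute difference between log2 CPM values, each centred on the gene's mean over the 8 libraries. The nearest profile to pgl-1 among the other granule genes was that of deps-1, at 0.054, and 0% of genes outside the list were nearer to pgl-1 than that, where the median gene was at 0.57. Outside the granule genes, npp-21 was nearest to pgl-1 (0.077), egl-45 to deps-1 (0.046), cct-4 to pgl-3 (0.042) and fkb-2 to glh-1 (0.096). The nearest granule gene to pgl-3 and to mip-1 was pgl-1 as well, at 0.13 and 0.16, and that to glh-1 was pgl-3 at 0.21. npp-9 was nearest to mip-1 (0.063), fzo-1 to pgl-2 (0.058) and cts-1 to glh-2 (0.071). glh-3 and mip-2 were each other's nearest granule gene, at 0.19, with 8.49% of genes nearer to glh-3 and 8.02% nearer to mip-2 than that. For glh-4, at 0.30 from glh-2, 7.74% of genes lay nearer, for pgl-2, at 0.18 from mip-1, 6.08%, and for glh-2, at 0.17 from mip-1, 4.18%. For glh-1 this share was 0.748%, although its distance was larger than that of glh-3. The nearest genes outside the list were vps-53 for glh-3 (0.059), mrpl-11 for glh-4 (0.12) and kcmf-1 for mip-2 (0.058).

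Other genes of the pathway were taken from 2 lists, which were also chosen with earlier results of these data known. Of 22 partners and regulators of P granules, all tested, 3 were called higher and 1 lower in sin-3 (background 2.68 and 4.92%), and 1 higher and 2 lower in hda-3 (background 13.5 and 4.86%). The list medians were -0.065 and -0.051 in log2, against 0.12 and -0.022 for all genes. The higher genes were 3 of the 4 MEG genes of the list, X-linked genes of proteins that act in granule assembly in the embryo: in sin-3 meg-3 rose from 22.1 ± 6.94 to 44.5 ± 5.61 CPM (log2 1.01, edgeR adjusted p = 0.0256), meg-1 from 47.5 ± 10.7 to 83.4 ± 6.62 CPM (0.81, adjusted p = 0.0378) and meg-2 from 4.57 ± 1.01 to 13.1 ± 7.96 CPM (1.53, adjusted p = 0.0401). meg-3 also rose in hda-3, to 40.8 ± 6.71 CPM (0.89, adjusted p = 0.0295), where meg-1 (0.61, adjusted p = 0.0824) and meg-2 (1.04, adjusted p = 0.117) did not pass the test. The MEG gene meg-4 was not called in either mutant, at 14.1 ± 3.42 CPM in wt, 13.3 ± 6.36 in sin-3 (log2 -0.064, edgeR adjusted p = 0.930) and 13.7 ± 0.272 in hda-3 (-0.041, adjusted p = 0.955). The germ granule gene elli-1 fell from 45.0 ± 1.80 CPM in wt to 24.6 ± 1.65 in sin-3 (-0.87, adjusted p = 0.0106) and 28.4 ± 0.176 in hda-3 (-0.66, adjusted p = 0.0248). csn-5, a COP9 signalosome gene whose product binds GLH-1, fell in hda-3 from 69.2 ± 14.3 to 38.4 ± 0.244 CPM (-0.85, adjusted p = 0.0447).

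Of 14 genes of the small RNA compartments that adjoin P granules, 0 were called higher and 2 lower in each mutant, where 2.68% of all genes were called higher and 4.92% lower in the sin-3 comparison and 13.5% and 4.86% in that of hda-3. The edgeR unadjusted p was under 0.05 for 3 genes in sin-3 and 4 in hda-3, all below wt, where 12.9% and 13.8% of all genes were so lower. DESeq2 called 2 lower in sin-3 and 0 in hda-3, against 719 and 449 of all 10302 genes. The list medians were -0.34 in sin-3 and -0.41 in hda-3, against 0.12 and -0.022 for all genes. simr-1, a Tudor-domain gene of the foci between P granules and mutator foci, fell from 53.1 ± 4.57 to 24.8 ± 0.902 CPM in sin-3 (log2 -1.10, edgeR adjusted p = 0.00634) and 34.1 ± 7.76 CPM in hda-3 (-0.64, adjusted p = 0.0480). hrde-2, a nuclear RNA interference gene, fell from 64.9 ± 7.80 to 28.7 ± 5.78 CPM in sin-3 (-1.17, adjusted p = 0.00644), and the Argonaute gene wago-4 fell from 152 ± 33.7 to 84.0 ± 11.8 CPM in hda-3 (-0.85, adjusted p = 0.0435). The sin-3 call of simr-1 held whichever library was left out. The other sin-3 calls were lost in some of these fits: meg-1 without wt replicate 3, wt replicate 5, sin-3 replicate 4, hda-3 replicate 4 or hda-3 replicate 5 (adjusted p up to 0.142), meg-2 without any 1 library but sin-3 replicate 3 (up to 0.145, with a log2 value of 0.93 without sin-3 replicate 5), meg-3 without wt replicate 3 or 5 or sin-3 replicate 4 (up to 0.111), and elli-1 and hrde-2 without sin-3 replicate 4 (0.0670 and 0.0507). In hda-3 each of the 5 calls was lost without replicate 4 and without replicate 5 of that genotype, with adjusted p from 0.0551 to 0.521. simr-1, at -0.41 without hda-3 replicate 4, was there also lost without any other library (up to 0.181), csn-5 without any wt library or sin-3 replicate 4 (up to 0.143), and meg-3 without wt replicate 3 or 5 (up to 0.107). elli-1 was lost without wt replicate 3, wt replicate 5 or sin-3 replicate 4 (up to 0.136), and wago-4 without wt replicate 4, wt replicate 5 or sin-3 replicate 4 (up to 0.123). Of the hda-3 calls, those of csn-5, elli-1, wago-4 and simr-1 were also lost with RLE factors (adjusted p = 0.0988, 0.0630, 0.0927 and 0.109), with DESeq2 (0.127, 0.0590, 0.0777 and 0.149) and with TMM on autosomal genes (0.114, 0.0994, 0.103 and 0.137). With no filter csn-5 (0.0589), elli-1 (0.255) and simr-1 (0.266) were lost, and with the 2 genotypes alone elli-1 (0.0704) and simr-1 (0.103). Scaled to reads outside ribosomal RNA, none of the 7 lower values was called and the 4 in hda-3 were above 0, while the 4 higher MEG values were called. That scaling raised the median of all genes to 0.92 in sin-3 and 0.88 in hda-3, and 96.1 and 98.4% of all its calls were higher. As it moves nearly all genes upward, it cannot show whether the MEG calls hold.

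**Figure D5:**
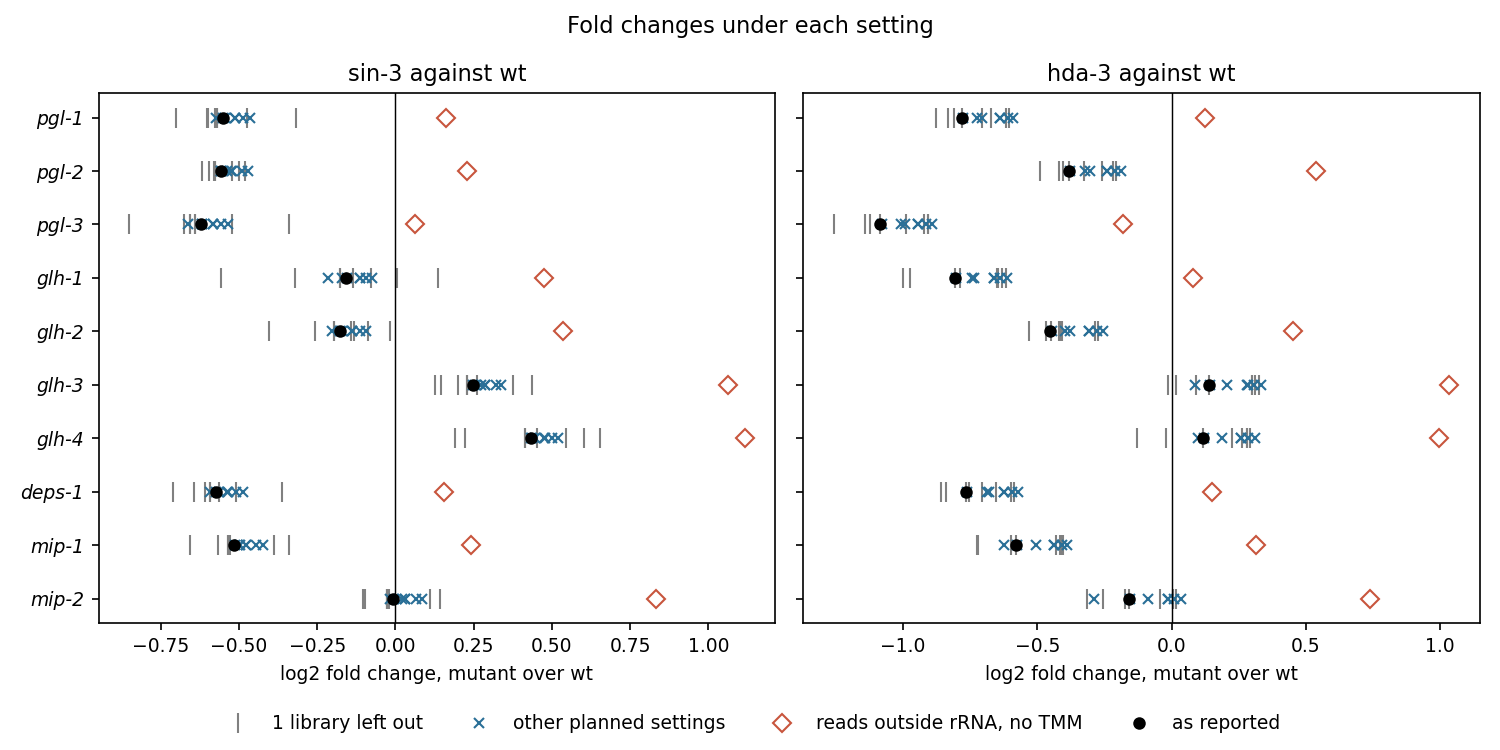
Log2 fold changes of the 10 genes over wt (horizontal axes) in sin-3 and hda-3 gonads as reported, with 1 library left out, under the other planned settings, and scaled to reads outside ribosomal RNA with no TMM factors. The last setting moves every gene to the right, with only pgl-3 in hda-3 still below 0, at -0.18; the order of the genes is similar.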

How the data were processed

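Read counts per gene were deposited by the authors as whole numbers, 1 file per library, not normalised. The tools that the submitters' processing notes name are fastp 0.20.1 and STAR 2.7.3a, besides HTSeq 0.7.2 and also DESeq2 1.36.0. Their roles and settings, the build and the strand mode were not given in the sources used here. The authors also deposited 2 tables of comparisons with wt, which per the file headers hold a mean normalised count (a signal), a log2 fold change with its SE, a test statistic (a score) and p-values; the log2 values and p-values were used. Symbols, exon lengths and overlaps came from Ensembl release 115 (WBcel235), which held 46923 of the 46934 identifiers.

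Counter lines that name no gene were left out: no feature (1.06 to 2.27% of a library), ambiguous (0.673 to 1.55%) and several places (3.03 to 5.57%). Reads on genes numbered 14550417 to 24389531 per library, of which 5110133 to 13268274 lay outside nuclear ribosomal RNA. Counts were tested with edgeR 4.0.16 in R 4.3.3 (TMM, robust quasi-likelihood fit, filterByExpr with minimum count 10 and minimum total 15) in 1 model of all 8 libraries, with Benjamini-Hochberg adjustment over all 10302 genes tested and a threshold of 0.05. SE is the size of the log2 fold change divided by the square root of F. Log2 CPM used a prior count of 2. The procedure was tested on simulated data. Replicates of a group differed by more than sampling noise, with a median chi-square per gene of 3.79 or more where sampling alone gives 0.455. Alternatives were RLE factors, DESeq2 1.42.0, no filter, a replicate block, 2 genotypes only, other gene sets for scaling and each library left out; scaling to reads outside ribosomal RNA with no TMM factors was chosen after the values were seen.

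The members and lists were chosen with earlier results of these data known. Genes named are the 10 members, the mutated genes, list genes called against wt and, for each member, the nearest profile among genes with a symbol and among the other members.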

Additional observations from a re-analysis of the deposited data

Results flagged for a closer look

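hrde-2, the nuclear RNA interference gene of the small RNA compartments, differed between the mutants when they were compared directly. Its log2 level in sin-3 over hda-3 was -0.74 (SE 0.21, edgeR adjusted p = 0.0331), at 28.7 ± 5.78 against 48.2 ± 2.76 CPM, and every sin-3 library was below both hda-3 libraries. Leaving out hda-3 replicate 4 or 5 gave adjusted p of 0.204 and 0.124, leaving out sin-3 replicate 3 or 4 gave 0.104 and 0.0613, and leaving out wt replicate 3 gave 0.0515. Over all 16 alternatives the adjusted p ran from 0.00169 to 0.317 and the call was lost in 8.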

How the results depend on the processing

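The signs of most granule genes depend on the scaling. The only call, pgl-3 in hda-3, is near the threshold in the model of all 8 libraries (edgeR adjusted p = 0.0323). It was lost in 10 of 16 alternatives, while the adjusted p was 0.00312 with no filter and 0.00454 with 2 genotypes. Granule genes called in hda-3 numbered 0 with RLE factors, the replicate block, TMM on autosomal genes and scaling to reads outside ribosomal RNA, and 0 to 2 without 1 library. In sin-3 the number was 1 under that last scaling and 0 to 0 without 1 library. Genes called in sin-3, 783 as reported, numbered 1302 with DESeq2, 1374 with no filter, 1375 outside ribosomal RNA and 200 to 1453 without 1 library; those in hda-3, 1891 as reported, numbered 1048 to 2673 without 1 library. Of the calls 35.2% were higher in sin-3 and 73.5% in hda-3, against 50.1% in sin-3 with no filter, 86.1% in hda-3 with RLE factors, 87.8% in hda-3 with autosomal TMM, and 96.1 and 98.4% outside ribosomal RNA. Partners and regulators called numbered 8 in sin-3 with no filter (0 to 9 without 1 library), and in hda-3 6 with no filter and 7 with 2 genotypes (0 to 8 without 1 library). Small RNA compartment genes called in sin-3 numbered 0 outside ribosomal RNA and 1 to 2 without 1 library. In hda-3 they numbered 0 with RLE factors, DESeq2, autosomal TMM and outside ribosomal RNA, 1 with no filter, the block or 2 genotypes, and 0 to 1 without 1 library.

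mip-2 in sin-3 changed sign to 0.030 with RLE factors, 0.030 with DESeq2, 0.021 with no filter, 0.085 with 2 genotypes and 0.065 with autosomal TMM (-0.10 to 0.14 without 1 library). mip-2 in hda-3 changed to 0.010 with 2 genotypes and 0.034 with autosomal TMM (-0.32 to 0.016 without 1 library). For sin-3 over hda-3, mip-1 was -0.038 with RLE factors, -0.038 with DESeq2 and -0.059 with autosomal TMM (-0.15 to 0.19 without 1 library), and glh-3 was -0.011 with autosomal TMM (-0.17 to 0.24). Without 1 library, glh-1 in sin-3 ran from -0.56 to 0.14, glh-3 in hda-3 from -0.013 to 0.32 and glh-4 in hda-3 from -0.13 to 0.29; between the mutants deps-1 ran from -0.0084 to 0.27 and mip-2 from -0.11 to 0.30. Scaling to reads outside ribosomal RNA gave, in sin-3, pgl-1 0.16, pgl-2 0.23, pgl-3 0.063, glh-1 0.47, glh-2 0.54, deps-1 0.16, mip-1 0.24, mip-2 0.83 and wago-4 0.046. In hda-3 it gave pgl-1 0.13, pgl-2 0.54, glh-1 0.079, glh-2 0.45, deps-1 0.15, mip-1 0.32, mip-2 0.74, csn-5 0.087, elli-1 0.25, wago-4 0.038, simr-1 0.26 and hrde-2 0.48, and between the mutants mip-1 -0.073. The cause of these changes was not tested. Whether replicate numbers pair the samples was not settled. Deviations of same-numbered libraries from their group means correlated at -0.091, 0.053 and 0.11 between wt and sin-3. They correlated at 0.082 and 0.29 between wt and hda-3, and at -0.0019 and -0.20 between hda-3 and sin-3. Deviations within a group are not independent, and those of the 2 hda-3 libraries mirror each other. These values therefore cannot show pairing or its absence. With the block, 983 genes were called in sin-3 and 1353 in hda-3, and pgl-3 in hda-3 had an edgeR adjusted p of 0.0785, csn-5 in hda-3 0.0758, simr-1 in hda-3 0.0501 and meg-2 in sin-3 0.0540.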
